A study of Homo sapiens with 20 samples.

Results

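Of 372133 sites of accessible chromatin in SW872 liposarcoma cells, 18298 held a peak in the TAZ4SA list and in none of the other 6 lists, and these are called TAZ4SA-only sites. They were found by merging overlapping peaks (1 bp or more) of all 7 deposited lists and noting which lists had a peak in each merged site. Each of them was a single TAZ4SA peak, so that 12.0% of the 152702 TAZ4SA peaks were TAZ4SA-only (Wilson 95% interval 11.8% to 12.1%). They covered 2002442 bases, or 3.79% of the bases under TAZ4SA peaks. The sites were thus chosen by the presence or absence of peaks, and peak strength and width bear on whether a peak is called, so every value is given as a description and no test was made. Of the 18298 sites, 18177 lay on chromosomes 1 to 22 and X and the remaining 121 on other sequences of the assembly.

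TAZ, the product of WWTR1, is a transcriptional coactivator that does not bind DNA itself and reaches chromatin mainly through TEAD transcription factors. The Hippo pathway restrains it, as LATS kinases phosphorylate serines of TAZ and so hold it in the cytoplasm and mark it for degradation. TAZ4SA is full-length TAZ in which LATS-targeted serines are replaced by alanine, so that it escapes this control. ATAC-seq reads open chromatin from the places where a transposase can cut DNA.

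The study profiled SW872, an established human liposarcoma line, after stable retroviral transduction with 1 of 7 vectors and G418 selection. Cells carried an empty vector (EV), TAZ4SA, YAP5SA (the corresponding mutant of YAP, a paralog of TAZ), full-length CAMTA1 or TFE3, or a fusion, either YAP-TFE3 or TAZ-CAMTA1. TFE3 had 2 libraries and every other vector 3, and the methods describe replicates as separate transductions, whose cells were selected as pools. In its title the third EV library is a redo, and the titles of the YAP-TFE3 libraries name Yap5SA as the YAP part. A single peak list per vector was analysed, so that no value below has an error between libraries, and the read depth of the lists is unknown. The absence of a peak from a list means that nothing passed the caller's threshold there, which does not show closed chromatin. Positions refer to hg19 (GRCh37) and count from 1. Genes, motifs, base sequences and markers of the cell line were not analysed here, because the genome and annotation at hand are of another build.

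Most TAZ4SA-only sites were narrow, weak peaks. Their median width was 93.0 bp (range 31 to 1178 bp), with quartiles of 77 and 109 bp. The area under the curve, the authors' measure of the size of a peak, had a median of 33.8, with a 95th percentile of 96.9 and a highest value of 1679. The summit −log10 p, the caller's significance at the highest point of a peak, had a median of 4.12 (range 3.42 to 8.69), and the median −log10 q was 2.09. Sites up to 100 bp wide made up 71.7% of the TAZ4SA-only sites and 20.4% of the TAZ4SA peaks in sites shared by all 7 lists. The significance values were coarse. The 18298 sites took 495 distinct values of summit −log10 p, and 814 of them shared the value 4.12.

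Peak strength in TAZ4SA rose with the number of lists that shared the site. The median summit −log10 p was 4.12 for TAZ4SA-only sites, 4.29 for the 7914 TAZ4SA peaks in sites of exactly 2 lists, 4.60 for the 10059 in sites of 6 lists and 5.50 for the 98993 in sites of all 7. The median area rose from 33.8 through 45.6 and 72.3 to 178, and the median width from 93.0 through 100 and 139 to 239 bp. A summit −log10 p of at least 5 was reached by 763 TAZ4SA-only sites, 4.17% of them, against 60.1% of the peaks shared by all lists. These 763 sites were 1.10% of the 69276 TAZ4SA peaks of that strength, and the 96 with an area of at least 200 were 0.186% of 51649.

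TAZ4SA-only sites of high summit −log10 p were wider and more often clustered than the set as a whole. The 763 sites that reached a summit −log10 p of 5 had a median width of 133 bp, and 50.3% of them lay in clusters of TAZ4SA-only sites, defined below, against 34.3% of all 18298. A peak of another list lay within 500 bp for 357 of them (46.8%, against 39.4% of all). Chromosome 5 held 180 of the 763 (23.6%, against 21.7% of all) and chromosome 13 held 73 (9.57%, against 9.33%). Of the 96 sites with an area of at least 200, 59.4% were clustered, and smaller shares lay on chromosome 5 (15.6%) and chromosome 13 (3.12%). Their median width was 281 bp, but area is summed over the bases of a peak, so that a large area favours wide peaks by construction.

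TAZ4SA-only sites were concentrated in the weakest part of the list. When the TAZ4SA peaks were ranked by area and cut into 10 equal parts (deciles), TAZ4SA-only sites made up 33.8% of the weakest decile (33.1% to 34.6%), 10.4% of the fifth and 0.288% of the eighth. The strongest decile held 1 such site among 15270 peaks, at rank 14730 from the top. Ranked by summit −log10 p, they made up 34.4% of the weakest decile and 0 of the 15270 peaks in the strongest (upper limit 0.0252%), and the first of them stood at rank 18968. The plot of the share by decile shows the same fall for both measures. The intervals here and below cover counting error only.

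**Figure D1:**
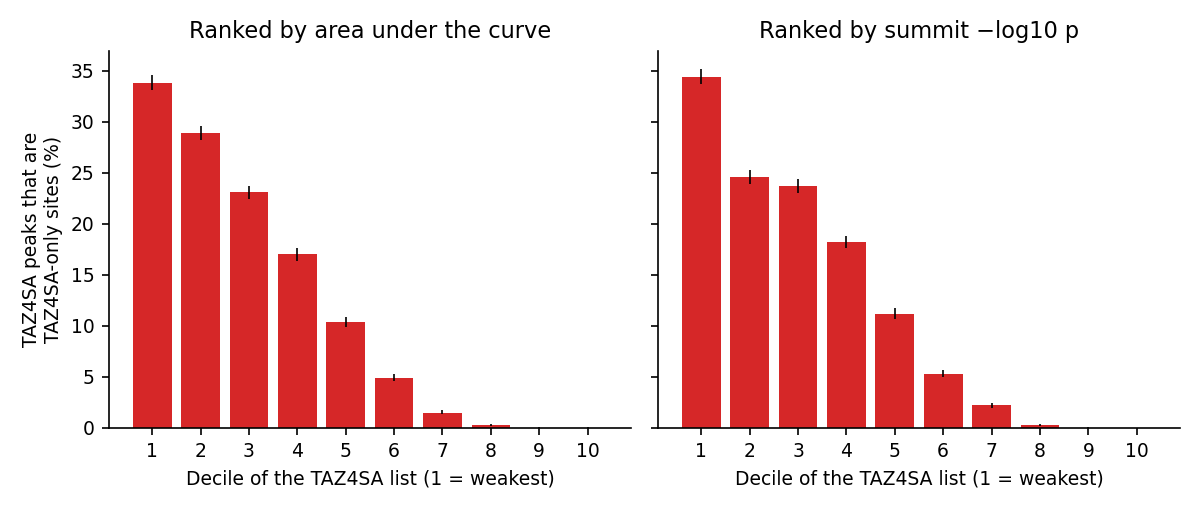
Share of TAZ4SA peaks that are TAZ4SA-only sites (y axis, percent) in each decile of the TAZ4SA list (x axis, 1 the weakest), ranked by area under the curve (left) or summit −log10 p (right). Bars are shares and lines are Wilson 95% intervals of counting error; the shares fall from 33.8% and 34.4% in the weakest decile to 0.00655% and 0 in the strongest.

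Other vectors also had sites of their own. YAP5SA had 39242 single-list sites (17% of its peaks), TAZ-CAMTA1 34791 (14.7%) and YAP-TFE3 30025 (12.7%). CAMTA1 had 21038 (9.41%), EV 12398 (7.25%) and TFE3 1522 (0.973%). TAZ4SA, with the shortest list, thus lay in the middle of this order at 12.0%. The other lists were then cut to the length of the TAZ4SA list, each keeping its 152702 strongest peaks by summit −log10 p. TAZ4SA lost no peak in this setting, so its share could not fall. That share was 15.8%, above 11.9% for YAP5SA and 9.25% for EV. The order depended on the setting, and each setting merged the sites anew. With all lists limited to peaks of at least 4 on that scale, the TAZ4SA share of 12.1% was below 14.9% for YAP5SA. With a limit of 5 it was 4.09%, below YAP5SA (11.1%), YAP-TFE3 (9.62%), TAZ-CAMTA1 (8.54%) and CAMTA1 (4.52%). The median width of single-list sites lay near that of TAZ4SA, at no more than 98.0 bp in any list. Their median summit −log10 p was 4.12 for TAZ4SA and 3.77 to 3.96 for the other 6, and the weakest peak of the whole list was also highest in TAZ4SA, at 3.38 against 3.05 to 3.28. With peaks below 4 removed from all lists, the TAZ4SA-only median of 4.28 was below those of YAP5SA (4.42), YAP-TFE3 (4.38), TAZ-CAMTA1 (4.31) and CAMTA1 (4.29).

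Strong single-list sites were fewer for TAZ4SA than for its paralog. A summit −log10 p of at least 5 occurred in 763 of the TAZ4SA-only sites and in 3622 of the YAP5SA-only sites (9.23%), and the highest value was 8.69 against 10.8. The YAP-TFE3 share, 4.61%, was close to the 4.17% of TAZ4SA. The shares of TAZ-CAMTA1 (1.73%), CAMTA1 (1.45%) and EV (0.992%) were lower, and 0 of the 1522 TFE3-only sites reached that level.

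TAZ4SA-only sites lay farther from the sites open in all 7 lists than did the single-list sites of the other vectors. Their median distance to the nearest site with a peak in all 7 lists, of which there were 60372, was 9766 bp, with quartiles of 2928 and 29995 bp. The corresponding medians were 7456 bp for YAP5SA-only, 7394 bp for YAP-TFE3-only and 6365 bp for EV-only sites, and 4260 to 4929 bp for sites of the other 3 lists. TAZ4SA had the longest median distance also when all lists were limited to a summit −log10 p of at least 4 (10440 bp) or 5 (17993 bp), to equal numbers of peaks (9927 bp), or to chromosomes other than 5 and 13 (8540 bp). In those settings the next longest were 8916, 16244, 9178 and 7416 bp, each for YAP-TFE3. The sites were merged anew in each setting, so the sets differ from the 18298 sites. With the limit of 5 there were 2833 TAZ4SA-only sites, and 763 of them belonged to the 18298. The rest of the 2833 shared a site with another list before the limit was set.

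**Figure D2:**
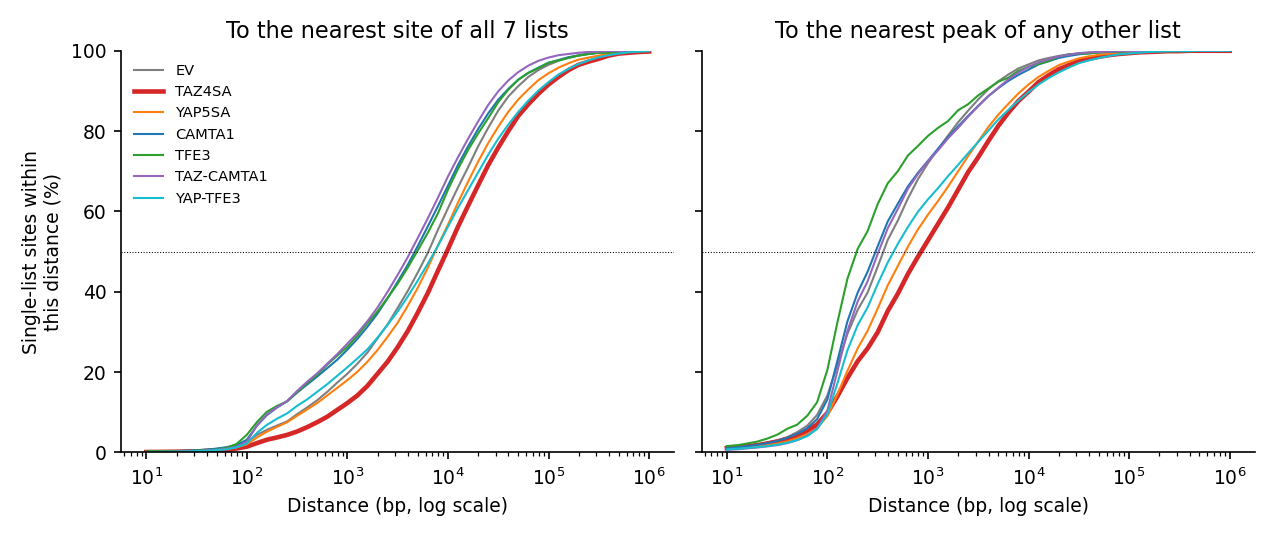
Cumulative share of the single-list sites of each vector (y axis, percent) within a given distance (x axis, bp, log scale) of the nearest site with a peak in all 7 lists (left) or of the nearest peak of any other list (right). The red TAZ4SA curve crosses the dotted 50% line at the longest distance in both panels, at medians of 9766 and 854 bp.

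TAZ4SA-only sites also had the longest median gap to the peaks of other vectors. The gap from a TAZ4SA-only site to a peak of another list had a median of 854 bp, against 196 to 589 bp for single-list sites of the other vectors. Within 500 bp, 39.4% of TAZ4SA-only sites had a peak of at least 1 other list, compared with 46.4% for YAP5SA-only and 70.0% for TFE3-only sites. No peak of another list lay within 500 bp for 11083 sites (60.6%), whereas 867 (4.74%) had all 6 other lists within that distance. A gap above 1000 bp was found for 8626 sites (47.1%), and one above 100000 bp for 105. Strength varied little with the gap, and the median summit −log10 p was between 4.08 and 4.16 in every class of gap. With sites merged anew from peaks of at least 5 in all lists, the order changed. The median gap was then 2203 bp for TAZ4SA, below 2586 bp for YAP-TFE3 and 2468 bp for YAP5SA.

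YAP5SA peaks were the most frequent neighbours. A YAP5SA peak was the single nearest one for 29.8% of the TAZ4SA-only sites, followed by YAP-TFE3 (18.1%), TAZ-CAMTA1 (17.2%), CAMTA1 (15.9%), EV (14.7%) and TFE3 (1.58%), and 2.54% had ties. YAP5SA had 230886 peaks, TAZ-CAMTA1 236893 and YAP-TFE3 235795, and of their single-list sites YAP5SA had the most (39242, against 34791 and 30025). Whether these numbers bear on the order of neighbours was not tested. The sites just outside the rule showed the same order at its top. Of the 7914 TAZ4SA peaks in sites with 1 other list, 3793 (47.9%) were shared with YAP5SA alone, 1180 (14.9%) with YAP-TFE3 alone, 993 (12.5%) with EV alone and 51 (0.644%) with TFE3 alone.

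The border between TAZ4SA-only and shared sites separated peaks of like strength. The 198 TAZ4SA-only sites with a peak of another list within 10 bp had a median summit −log10 p of 4.11, a median width of 99.5 bp and a median area of 32.7. On the other side, the 212 TAZ4SA peaks that overlapped another list by 10 bp or less had 4.12, 95 bp and 35.1. Among the TAZ4SA-only sites, 16 touched a peak of another list without overlapping it.

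TAZ4SA-only sites were unevenly spread over the chromosomes, and chromosomes 13 and 5 stood highest. On chromosome 13, 1707 of 6298 TAZ4SA peaks were TAZ4SA-only (27.1%, interval 26.0% to 28.2%). On chromosome 5, 3979 of 17788 were (22.4%, 21.8% to 23%), and chromosome 7 followed with 1865 of 11846 (15.7%). The lowest shares were 3.49% on chromosome 10 (117 of 3355), 4.22% on chromosome 19 (174 of 4119) and 5.06% on chromosome X (156 of 3085). Chromosomes 5 and 13 together held 31.1% of the TAZ4SA-only sites and 15.8% of all TAZ4SA peaks, and the share elsewhere was 9.81%. The high shares on these chromosomes were not limited to TAZ4SA. YAP5SA had 25.2% single-list peaks on chromosome 13 and 22.9% on chromosome 5, and EV had 22.1% and 14.3%, both above their genome-wide 17% and 7.25%. TFE3 had 1.47% and 0.968%, against 0.973% genome-wide. TAZ-CAMTA1 was below its genome-wide 14.7% on both, at 12.1% and 14.3%. YAP-TFE3 had 14.2% and 12.2% against 12.7%, and CAMTA1 had 10.3% on each against 9.41%.

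The position of TAZ4SA-only sites relative to shared open chromatin also differed between chromosomes. The median distance to a site of all 7 lists was 44410 bp on chromosome 18 and 13568 bp on chromosome 13. It was 12559 bp on chromosome 5 and 5766 bp on chromosome 17. Chromosome 18 had only 206 TAZ4SA-only sites, and 99 of them lay between 76 and 77 Mb, where 7 sites of all 7 lists were found. The median summit −log10 p varied little, between 4.10 on chromosome 12 and 4.24 on chromosome 21.

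**Figure D3:**
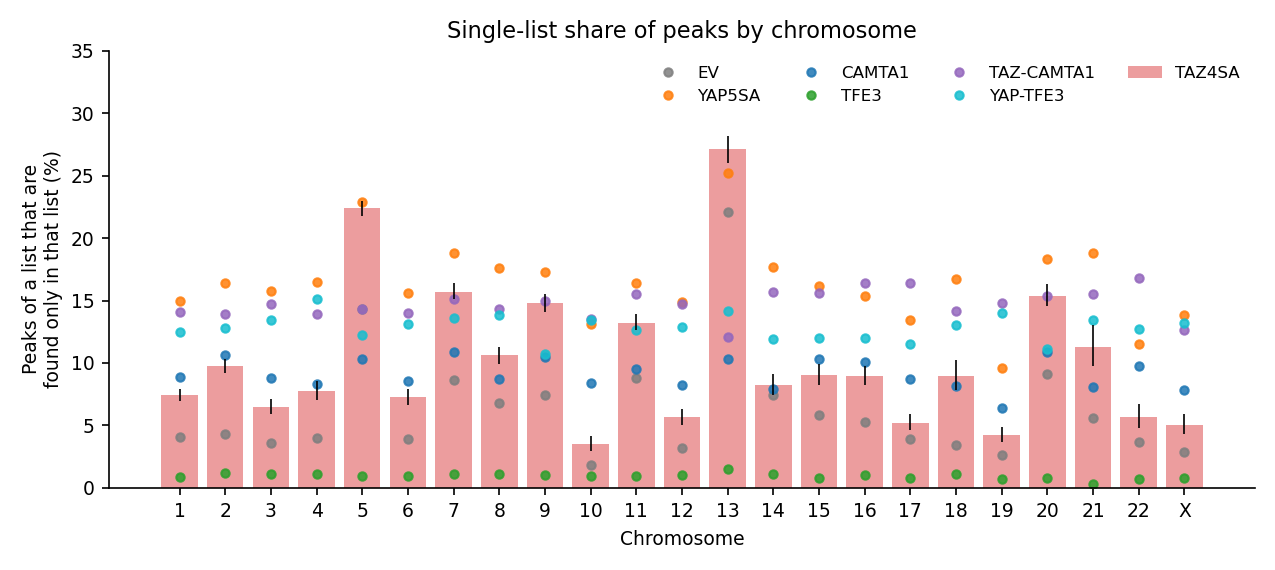
Share of the peaks of a list that are found in that list alone (y axis, percent) on chromosomes 1 to 22 and X (x axis). Bars with Wilson 95% intervals of counting error are TAZ4SA and points the other 6 lists; the TAZ4SA bars are highest on chromosomes 13 (27.1%) and 5 (22.4%), where the YAP5SA points (25.2% and 22.9%) are also highest.

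Many TAZ4SA-only sites lay in clusters of their own kind. A cluster was a set of 3 neighbouring TAZ4SA-only sites within 20 kb, and sets with a site in common were joined into 1 cluster. By this rule, 6281 sites (34.3%, interval 33.6% to 35%) fell into 1261 clusters. The median cluster spanned 16817 bp, 599 clusters had exactly 3 sites, 94 had 10 or more and 17 had 20 or more. Chromosomes 5 and 13 carried 558 clusters (44.3%), and 60 of the 94 with at least 10 sites. On chromosome 13, 73.1% of the TAZ4SA-only sites were clustered, on chromosome 5 49.4%, and without these chromosomes 24.3%. Clustered sites were slightly stronger and wider than the rest, with median summit −log10 p of 4.19 against 4.12 and median width of 98.0 against 91.0 bp.

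Clustering was seen in other lists as well. The clustered share was 42.6% for YAP5SA-only, 41.3% for TAZ-CAMTA1-only, 35.5% for EV-only, 31.3% for YAP-TFE3-only, 22.7% for CAMTA1-only and 0.788% for TFE3-only sites. More numerous sites fall closer together, and the numbers differ between lists. With all lists limited to a summit −log10 p of at least 5, 21.0% of 2833 TAZ4SA-only sites were clustered, compared with 14.7% of 11307 for YAP5SA, the next highest. Without chromosomes 5 and 13 the TAZ4SA share was 24.3%, near EV (24.4%). It was then below TAZ-CAMTA1 (41.1%), YAP5SA (38.4%) and YAP-TFE3 (30.7%), and above CAMTA1 (22.2%) and TFE3 (0.892%).

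Most clusters held peaks of other lists between the TAZ4SA-only sites. A peak of each of the other 6 lists lay within the span of 704 clusters (55.8%), and no peak of another list within that of 105 (8.33%). The largest of these 105 had 5 sites, one of them on chromosome 5 from 164186563 to 164198018. The lists most often missing were TFE3, without a peak in 41.0% of the clusters, and TAZ-CAMTA1 in 27.4%, and YAP5SA was missing least often, in 15.9%. A site of all 7 lists was absent from 668 clusters (53.0%).

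The largest cluster comprised 67 TAZ4SA-only sites on chromosome 5 from 165364932 to 165704536. This span was dense in peaks of several vectors, with 256 peaks of TAZ4SA, 239 of YAP5SA and 213 of EV, then 138 of CAMTA1, 58 of YAP-TFE3, 46 of TAZ-CAMTA1 and 26 of TFE3. Nearby clusters from 165873580 to 166076796 and from 166102013 to 166214418 held 43 and 36 such sites. The remaining 2 of the 5 largest lay on chromosome 13, with 38 sites from 103673835 to 103879050 and 36 from 97113032 to 97251290. In the last of them TAZ4SA had 54 peaks, EV 38 and YAP5SA 26, and the other 4 lists 3 to 11.

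The largest cluster outside chromosomes 5 and 13 was the seventh in size and lay on chromosome 18 from 76639785 to 76745526. It held 32 TAZ4SA-only sites among 49 TAZ4SA peaks. YAP5SA had 27 peaks there, YAP-TFE3 4, EV 2, CAMTA1 and TAZ-CAMTA1 1 each and TFE3 0, and no site was shared by all 7 lists. In the whole interval of 76 to 77 Mb, 99 of 208 TAZ4SA peaks were TAZ4SA-only (47.6%), with 146 YAP5SA peaks against 38 of EV and 18 of TAZ-CAMTA1. Here EV had few peaks, whereas in the spans of the largest chromosome 5 and 13 clusters it had many, as the peak profiles around 3 clusters show. To the left of the chromosome 5 cluster EV was sparse too, with 29 peaks against 133 of TAZ4SA from 164 to 165 Mb.

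**Figure D4:**
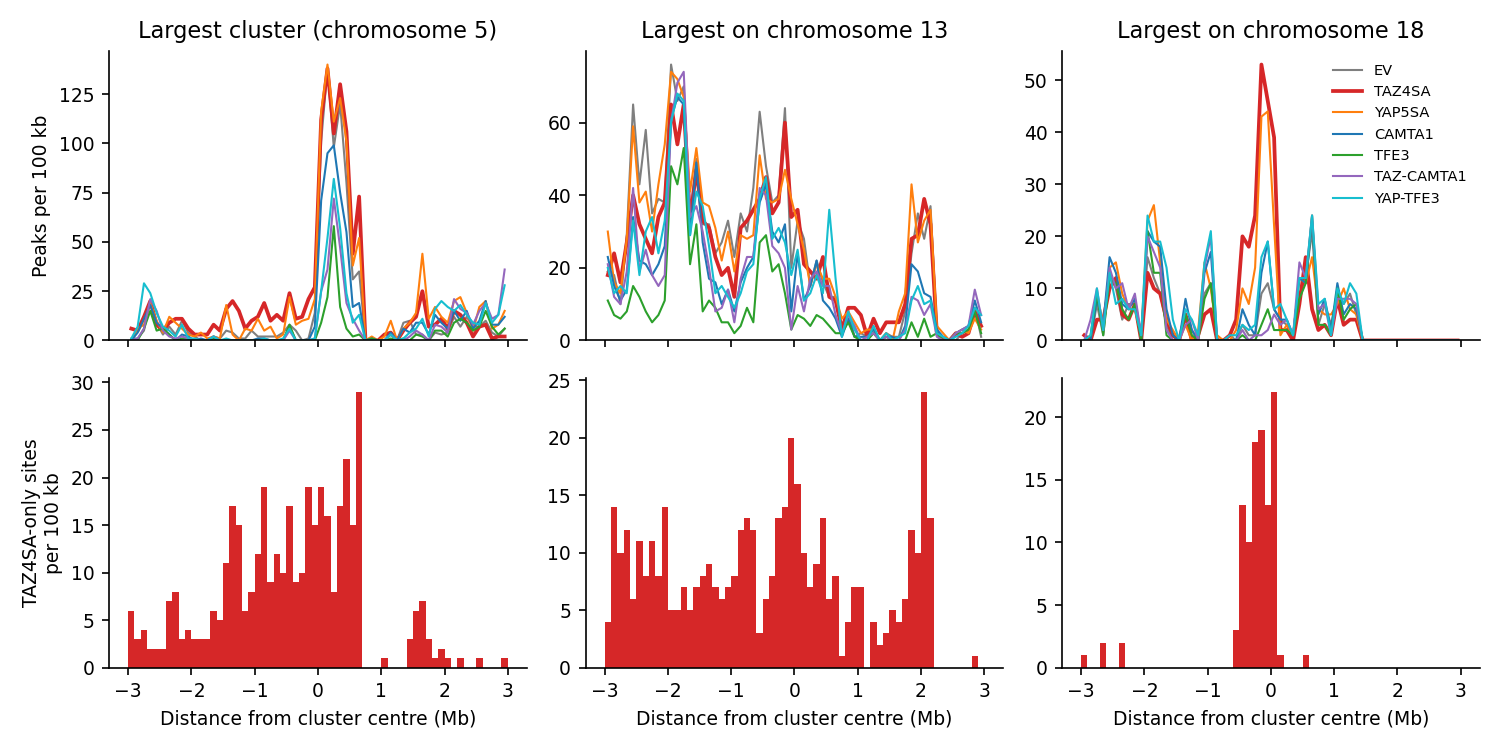
Peaks of each list per 100 kb (top) and TAZ4SA-only sites per 100 kb (bottom) on the y axes, against the distance from the centre of a cluster (x axis, Mb) for the largest clusters of chromosomes 5, 13 and 18 (67, 38 and 32 sites). EV counts are high just right of the centre of the chromosome 5 cluster, lower to its left, and high near the chromosome 13 cluster. They are low at the chromosome 18 cluster, where those of TAZ4SA and YAP5SA are high. The chromosome 18 panel runs on past the end of the chromosome, where counts are 0.

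The same unevenness appeared in fixed windows of 1 Mb. Of 2860 windows with any peak, 616 had no TAZ4SA-only site, the median was 2.50 and the maximum was 147. The 43 windows with 50 or more sites were 1.50% of the windows and held 3319 sites (18.1%), and 34 of the 43 lay on chromosomes 5 and 13. They held 8.01% of all TAZ4SA peaks. In these windows 27.1% of TAZ4SA peaks were TAZ4SA-only, and 10.7% in the others. The windows were picked by their number of TAZ4SA-only sites, which favours a high share in them by construction. Joining adjacent windows gave 19 runs, several of which were 1 window alone. The longest covered 91 to 99 Mb of chromosome 13 with 698 sites and 100 to 106 Mb with 494. On chromosome 5, 164 to 167 Mb held 323 and 129 to 132 Mb held 282.

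The window from 164 to 165 Mb of chromosome 5 was the one most nearly made up of TAZ4SA-only sites among the 10 richest. There 121 of its 133 TAZ4SA peaks had no counterpart, while YAP5SA had 59 peaks, EV 29, YAP-TFE3 3, CAMTA1 2, and TAZ-CAMTA1 and TFE3 0. On chromosome 1, from 240 to 241 Mb, 61 of 153 TAZ4SA peaks were TAZ4SA-only, and YAP5SA had 132 peaks, EV 28 and TAZ-CAMTA1 30. The windows were partly the same as those of other lists. The richest 5% of windows, 143 for each list, held 36.7% of TAZ4SA-only sites. Windows chosen in the same way held 44.6% of EV-only, 29.3% of TFE3-only and 21.6% of YAP5SA-only sites. For the remaining lists the share was 17.6% to 21.3%. Of the 143 TAZ4SA windows, 97 were also among the 143 richest in EV-only sites, 92 in YAP5SA-only sites and 60 in CAMTA1-only sites. For YAP-TFE3, TAZ-CAMTA1 and TFE3 the shared windows numbered 41, 40 and 22.

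Sites near the longest peak-free stretch of a chromosome, which are flanks of regions where no list had a peak, were counted separately. Within 1 Mb of such a stretch lay 601 TAZ4SA-only sites (3.28%), 1.91% of all TAZ4SA peaks and 1.21% of those shared by all lists. The single-list sites of the other vectors ranged from 0.788% (TFE3) to 2.35% (EV). Among the 100 TAZ4SA-only sites of largest area, 23 lay there. Within 1 Mb of the first or last peak of a chromosome lay 4.88% of the TAZ4SA-only sites and 3.72% of all TAZ4SA peaks.

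The TAZ4SA-only site of largest area was on chromosome 20 from 18142447 to 18143624. It was also the widest, at 1178 bp, with an area of 1679, and its summit −log10 p was 6.83, below the highest value of 8.69. The nearest peak of another list was an EV peak 1242 bp away with an area of 27.3, and the nearest site of all 7 lists lay 22574 bp away. The second largest, an area of 828 with a summit −log10 p of 7.71, lay on the same chromosome from 18123256 to 18123615, and a weak YAP5SA peak (area 45) was 1572 bp from it.

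Both belonged to a single group of TAZ4SA-only sites of large area. Within 50 kb to each side of the largest, TAZ4SA had 11 peaks, 10 of which were TAZ4SA-only. Their areas ranged from 51.4 to 1679, and 9 of the 10 exceeded 100. The other vectors had 2 to 6 peaks each in this interval, and 1 site was shared by all 7 lists. Further members of the group lay from 18139675 to 18139959 (area 355, summit −log10 p 6.07) and from 18162302 to 18162535 (area 381, 6.30).

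The next largest sites were scattered over the genome. On chromosome 7, a site from 157725182 to 157726069 was 888 bp wide with an area of 585 and a summit −log10 p of 6.60, and no other list had a peak within 16460 bp. Another on this chromosome, from 61752594 to 61753132 (area 559, 6.59), lay within 1 Mb of the longest peak-free stretch, which ran from 58037839 to 61055380. The site on chromosome 9 from 66699854 to 66700243 (area 520, 6.73) had a CAMTA1 peak 358 bp away. On chromosome 18, from 76392878 to 76393782, a site 905 bp wide (area 515, 6.18) belonged to the dense 76 to 77 Mb interval described above, and YAP5SA, YAP-TFE3 and CAMTA1 each had a peak within 500 bp. The site on chromosome 8 from 70448983 to 70449446 (area 462, 6.27) stood apart, with the nearest other peak, of YAP5SA, at 31888 bp.

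For a site on chromosome 16 from 48951431 to 48951731 (area 451, 6.77), the neighbouring YAP5SA peak was itself strong. It was 769 bp away, with an area of 379 and a summit −log10 p of 6.21, and the next nearest list, YAP-TFE3, was 34714 bp away. The highest summit −log10 p, 8.69, belonged to a narrow site of 101 bp on chromosome 10 from 115898019 to 115898119 (area 445), 169 bp from a weak EV peak of area 40.2. The last of the 10 largest, on chromosome 1 from 18376143 to 18376513 (area 442, 6.59), had its nearest other peak at 14564 bp. Of the 10 largest sites, YAP5SA was the nearest list for 6, and EV and CAMTA1 for 2 each.

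The 10 sites of highest summit −log10 p included a further pair. One lay on chromosome 7 from 53679096 to 53679256 (6.88, area 288), 151 bp from a YAP-TFE3 peak, and the other on chromosome 5 from 63884065 to 63884459 (6.75, area 322), 266 bp from an EV peak. The widest sites were not always strong. A site of 874 bp on chromosome 7 from 61191536 to 61192409 had an area of 130 and a summit −log10 p of 4.36, and one of 794 bp on chromosome 5 from 163249100 to 163249893 had 271 and 4.84.

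The most isolated TAZ4SA-only sites had small areas. The farthest from any other peak was on chromosome 7 from 9694908 to 9694951, 1146668 bp from a YAP5SA peak, with a width of 44 bp, an area of 30.9 and a summit −log10 p of 4.55. The next, on chromosome 2 from 35224521 to 35224592 and on chromosome 11 from 90837503 to 90837601, were 894162 and 678021 bp away, with areas of 24.7 and 23.1 and a summit −log10 p of 3.76 and 3.92. All 3 areas were below the median of 33.8, whereas the summit −log10 p of the farthest site was above the median of 4.12 and those of the next were below it.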

How the data were processed

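ATAC-seq libraries (20) of SW872 cells carrying 7 vectors were summarised by the authors in 1 peak list per vector, in hg19 (GRCh37) coordinates; a peak on chromosome 1 ends at 249240671. According to the methods, adapters were removed by NGmerge, alignment used BWA-MEM and Genrich called the peaks (ATAC-seq setting), with PCR duplicates, blacklisted regions, the mitochondrial genome and named contigs removed. No control library is named. Calling is described for each replicate, and how libraries were combined into a list is not given in the sources used here. The submitters' processing notes name Bowtie 0.12.2 and the mouse build mm8, which differ from these methods and from the human coordinates.

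The signal the authors deposited for each peak is an area, that of the Genrich statistic summed over the peak. The −log10 p-value of the summit and the −log10 q-value were deposited with it, and the deposited score, the mean area per base, was not used. Depth was not part of the lists, so that precision between libraries is unknown.

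From the lists, peaks that overlap by 1 bp or more were merged into sites. Distances are counts of bases between edges, and touching or overlapping intervals have 0. Shares carry Wilson 95% intervals, and no test was run, since each vector had 1 list and peaks are not replicates. The merging and distance code, and the choice of which sites are clustered, were tested on simulated peaks with known answers. The joining of sets into clusters was not part of that test. Python 3.11.15, numpy 2.4.6, scipy 1.17.1, pandas 2.3.3 and matplotlib 3.10.9 were used.

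The sites named were the 10 of largest area, the 10 of highest summit −log10 p, the 5 widest, the 5 clusters with most sites, the 3 sites farthest from any other list and the 3 chromosomes with the highest and the 3 with the lowest share. Values given for the chromosome 18 cluster, the chromosome 20 group and the 1-Mb windows were chosen after their values were seen. The TAZ4SA-only sites, the rule and the comparisons were chosen with earlier results of these data known. Alternatives changed the threshold on peaks, the length of the lists, the overlap, the peak width, the cluster span and the chromosomes. Gene and motif counts were planned and not run, because the genome at hand is of another build.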

Additional observations from a re-analysis of the deposited data

How the results depend on the processing

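Of 61 values of the main results, 35 moved under the alternatives. Moved means a change of the site count by over 1.5 times, or a share or median outside the 95% interval of the reported value. These values have no direction, so a reversal was not assessed. Intervals of medians were binomial, treated sites as independent and held no error between libraries. For the summit −log10 p that interval ran from 4.12 to 4.12, so small shifts counted as moved. The number of TAZ4SA-only sites, 18298 as reported, was 2833 when peaks needed a summit −log10 p of 5 or more, 61655 when sharing required an overlap of 50% of both peaks, and 11083 when a peak of another list within 500 bp counted as shared. Their share of TAZ4SA peaks was 4.09%, 40.4% and 7.26% in these settings, 15.8% with equal numbers of peaks, 9.92% with summit windows (250 bp on either side), 10.7% without the 1-Mb windows of 50 or more sites and 9.81% without chromosomes 5 and 13. The median summit −log10 p was 4.28 with peaks of at least 4, 5.33 with at least 5, 4.16 with equal numbers, 4.35 with 50% overlap and 4.19 with summit windows. The median width was 99, 166, 95 and 101 bp in the first 4 of these settings and 91.0 bp without the dense 1-Mb windows; it is fixed by construction in summit windows. The median distance to a site of all 7 lists was 10440 bp with at least 4, 17993 bp with at least 5, 0 bp with 50% overlap, 14052 bp with the 500 bp rule, 8114 bp with summit windows and 8540 bp without chromosomes 5 and 13. The clustered share was 21.0% with at least 5, 41.1% with equal numbers, 62.6% with 50% overlap, 21.1% with the 500 bp rule, 18.1% with summit windows, 20% for a span of 10 kb, 55.4% for 50 kb, 24.0% without the dense windows and 24.3% without chromosomes 5 and 13. A higher threshold raises the median summit −log10 p by construction, and the 50% rule lets peaks that overlap other lists count as TAZ4SA-only. A threshold also lets a TAZ4SA peak count as TAZ4SA-only where the peaks of other lists in its site fall below it. The 500 bp rule can only lower the number and share of TAZ4SA-only sites. Equal numbers of peaks can only raise them, because the TAZ4SA list stays whole. A shorter cluster span can only lower the clustered share, and a longer one can only raise it. The cause of the other shifts was not tested. Of the 10 largest sites, 7 stayed TAZ4SA-only under the 500 bp rule and 9 with summit windows. Merging touching peaks and leaving out dense windows or chromosomes 5 and 13 were chosen after seeing the data.

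No paired analysis was possible because values of single libraries are not part of the lists, and leaving out each replicate was not run for the same reason. The motif alternative was not run. With 1 list per vector, differences between vectors cannot be told apart from differences between their libraries, the redo EV library and the 2 TFE3 libraries included. Depth behind each list is unknown, and a site missed at low depth in another list would count here as TAZ4SA-only.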
